A study of Rattus norvegicus with 6 samples.

Results

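The genes described here are the cyclins, the cyclin-dependent kinases (CDKs), the Cdc25 phosphatases that switch CDKs on, the CDK inhibitors, the retinoblastoma pocket proteins and the E2F transcription factors. They were chosen by name, 40 in all, and a gene counted as measured where a transcript cluster of the array (the set of probes for 1 locus) carried its symbol alone. Of the 40, 36 were measured among the 18166 genes of the array, and Ccnd3, E2f2, Cdk8 and Cdkn2d were not analysed here. The tissue was whole spleen of Sprague-Dawley rats, taken 10 days after surgery. In 3 rats the portal vein was narrowed with a ligature tied over a needle (partial portal vein ligation, PPVL), which gives portal hypertension without cirrhosis and an enlarged spleen. In 3 sham rats the vein was exposed in the same way and no ligature was tied. All rats were male, per the study's methods, and their age is not given in the sources used here. Each spleen was hybridised to 1 Affymetrix rat whole-transcript array, and levels are on the log2 scale after RMA, so that a difference of 1 is a doubling.

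Progress through the cell cycle is driven by cyclins, which appear and disappear in turn and activate their CDK partners. D-type cyclins with Cdk4 and Cdk6, then E-type cyclins with Cdk2, phosphorylate the pocket proteins and release E2F factors, which switch on the genes of DNA replication. Cyclin A carries cells through S phase, and cyclin B with Cdk1, activated by Cdc25 phosphatases, brings them into mitosis. Inhibitors of the Cip/Kip and INK4 families hold CDKs back, and the late cyclins and Cdk1 are kept silent in resting cells by a repressor complex of pocket proteins and E2F4 that acts through a promoter element called CHR. In the rodent spleen, dividing cells include erythroid precursors of the red pulp and activated lymphocytes of the white pulp.

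Among the members, Cdc25c and Cdk2 passed the test and both were lower in PPVL spleens, so the promoters of these 2 genes are shown. Those of Cdk1, Ccnb1 and Ccnb2, the kinase and cyclins of mitotic entry, are shown beside them. Each line is the 250 bases before the annotated start in RefSeq (build GRCr8), 5′ to 3′ on the gene's strand. Capitals mark the CCAAT box (CCAAT, or ATTGG on the opposite strand), the CHR (TTTGAA, or TTCAAA) and the E2F motif (TTTCCCGC, TTTCGCGC, TTTGCCGC or TTTGGCGC, or a reverse complement). Matches of different motifs did not overlap. The windows lie at chr18:26630293-26630542 (minus strand, Cdc25c), chr7:1721879-1722128 (minus strand, Cdk2), chr20:19265043-19265292 (plus strand, Cdk1), chr2:33655226-33655475 (minus strand, Ccnb1) and chr8:79981659-79981908 (minus strand, Ccnb2).
Cdc25c: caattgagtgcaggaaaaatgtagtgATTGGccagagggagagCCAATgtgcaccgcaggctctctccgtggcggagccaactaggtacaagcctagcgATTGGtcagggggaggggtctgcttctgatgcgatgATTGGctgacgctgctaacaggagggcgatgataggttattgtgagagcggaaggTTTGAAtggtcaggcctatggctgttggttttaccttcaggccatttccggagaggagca
Cdk2: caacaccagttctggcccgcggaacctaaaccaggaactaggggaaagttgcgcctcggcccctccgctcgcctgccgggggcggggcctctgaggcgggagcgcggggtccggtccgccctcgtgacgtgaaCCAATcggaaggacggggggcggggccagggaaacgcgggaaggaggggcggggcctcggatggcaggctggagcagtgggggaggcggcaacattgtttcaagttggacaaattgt
Cdk1: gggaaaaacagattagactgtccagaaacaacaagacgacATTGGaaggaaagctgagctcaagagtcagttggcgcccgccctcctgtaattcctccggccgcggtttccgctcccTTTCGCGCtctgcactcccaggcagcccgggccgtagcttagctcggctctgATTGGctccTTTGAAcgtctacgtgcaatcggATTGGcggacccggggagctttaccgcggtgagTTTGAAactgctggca
Ccnb1: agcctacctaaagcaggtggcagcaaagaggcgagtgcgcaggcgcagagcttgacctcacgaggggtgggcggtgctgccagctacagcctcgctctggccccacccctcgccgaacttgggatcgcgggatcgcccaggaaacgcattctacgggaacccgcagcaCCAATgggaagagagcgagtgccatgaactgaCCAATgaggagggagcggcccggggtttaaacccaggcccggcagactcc
Ccnb2: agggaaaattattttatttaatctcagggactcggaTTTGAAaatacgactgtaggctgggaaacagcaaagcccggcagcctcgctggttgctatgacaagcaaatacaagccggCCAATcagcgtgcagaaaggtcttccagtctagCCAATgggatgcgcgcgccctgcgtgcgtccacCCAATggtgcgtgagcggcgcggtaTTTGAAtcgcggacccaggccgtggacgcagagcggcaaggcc

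The Cdc25c window held 4 CCAAT boxes and 1 CHR, the CHR nearest to the start at 60 to 55 bases before it. The Cdk2 window held 1 CCAAT box, 117 to 113 bases before the start, and no match to the other motifs. Cdk1 had 3 CCAAT boxes, 2 CHRs and 1 E2F motif, Ccnb2 had 3 CCAAT boxes and 2 CHRs, and Ccnb1 had 2 CCAAT boxes only. Of the 40 genes, 28 had a window in the table, and 25 of these were measured on the array. Ccna2, Ccne2 and E2f8 are among the genes without a window. A CCAAT box was found in 13 of the 28 windows (46.4%), against 34.3% of all 27457 windows. A CHR was found in 6 of 28 (21.4%, against 16.0% of all windows), an E2F motif in 4 of 28 (14.3%, against 1.81%), and a CCAAT box with a CHR in 5 of 28 (17.9%, against 5.76%). The 5 genes with both were Ccnb2, Cdc25c, Cdk1, Cdkn3 and E2f3, and their log2 fold changes ran between -0.49 and -0.17 with a median of -0.37. The 7 measured genes with a CCAAT box and no CHR had a median of -0.28 and ranged between -0.57 (Cdc25b) and -0.02 (Cdkn1b), and Cdkn2b, the 1 gene with a CHR and no CCAAT box, was at 0.15. The 12 measured genes with neither motif had a median of -0.05, and ranged between -0.59 (Ccne1) and 0.28 (Cdkn1a). Without PPVL rat 1, whose pancreatic transcripts are described below, the 5 genes with both motifs lay between -0.36 (Cdc25c) and -0.10 (Cdkn3). Their median was then -0.18 (Cdk1). The 7 with a CCAAT box and no CHR then lay between -0.35 (Cdc25b) and 0.04 (Cdkn1b). Their median of -0.17 (Cdc25a) was close to that of the 5 genes with both. The 12 with neither motif then lay between -0.37 (Ccne1) and 0.16 (Cdkn1a), with Ccna1 (-0.04) and Cdk5 (-0.03) in the middle. These are descriptions of letters in a window and were not tested against the array values.

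One PPVL spleen stood apart before any comparison. In PPVL rat 1, transcripts of the exocrine pancreas, an organ that touches the spleen, were high: 18 of 20 such markers were measured, and their summed linear signal was 27716 in that rat, against 913 to 995 in the other 2 PPVL rats and 943 to 978 in the 3 sham rats. The fold changes of the members that the results turn on are therefore also given without it. Erythroid markers differed between single rats of both groups. Of 10 listed, 7 were measured and none passed the test, with a median log2 fold change of -0.64, and of -0.13 without PPVL rat 1. Their summed linear signal was 3588, 14911 and 7987 in PPVL rats 1 to 3, against 14671, 15298 and 7634 in sham rats 1 to 3, and all 7 were lowest in PPVL rat 1. RMA values have no true zero, so no marker can be called absent. Median log2 fold changes of the B cell, T cell, germinal centre B cell and red pulp macrophage markers lay between -0.11 and 0.05. Without PPVL rat 1 they lay between -0.13 (T cell) and 0.09 (red pulp macrophage). With all rats the T cell median covered opposite directions. Cd8a was at -0.25 with groups that did not overlap, and Cd4 at 0.28 with groups that did. Neither passed the test (limma unadjusted p = 0.0547 and 0.0796). The array medians lay between 6.22 and 6.33.

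Over all measured members, 2 of 36 were lower and 0 higher in PPVL than in sham spleens at an unadjusted p under 0.05 (limma, two-sided). The background was low too: 1.55% of all 18166 genes passed as lower, 2.69% as higher and 4.23% in either direction. No member passed after Benjamini-Hochberg adjustment over the 36685 transcript clusters. The smallest adjusted p of limma was 0.973 among members and 0.753 among the 18166 genes. Cdc25c, Cdk2 and, below, Chek2, Tyms and Orc1 are also among the genes that the study drew from these same arrays, so their calls here are not independent evidence. The sign leaned 1 way: 28 of 36 members (77.8%) had a negative log2 fold change, against 48.3% of all genes. The members are not separate observations. In 19 of 36, PPVL rat 2 was the highest PPVL rat and sham rat 3 the lowest sham rat. The 17 measured drivers of 19 listed (cyclins A, B, D and E, Cdk1, Cdk2, Cdk4, Cdk6, the Cdc25 phosphatases and the activator E2Fs) had a median of -0.31 (-0.20 without PPVL rat 1), with 14 negative. The 15 measured inhibitors and repressors of 16 listed had a median of -0.08 (-0.05 without PPVL rat 1), with 11 negative, none passing the test. Ccnc, Cdk5, Cdk7 and Cdk9, set apart for roles in transcription or in neurons, had a median of -0.02, and the median over all genes was 0.00. Of these, Cdk7 is also part of the kinase that activates other CDKs. In whole spleen, fewer cells of a type and less RNA per cell cannot be told apart.

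**Figure D1:**
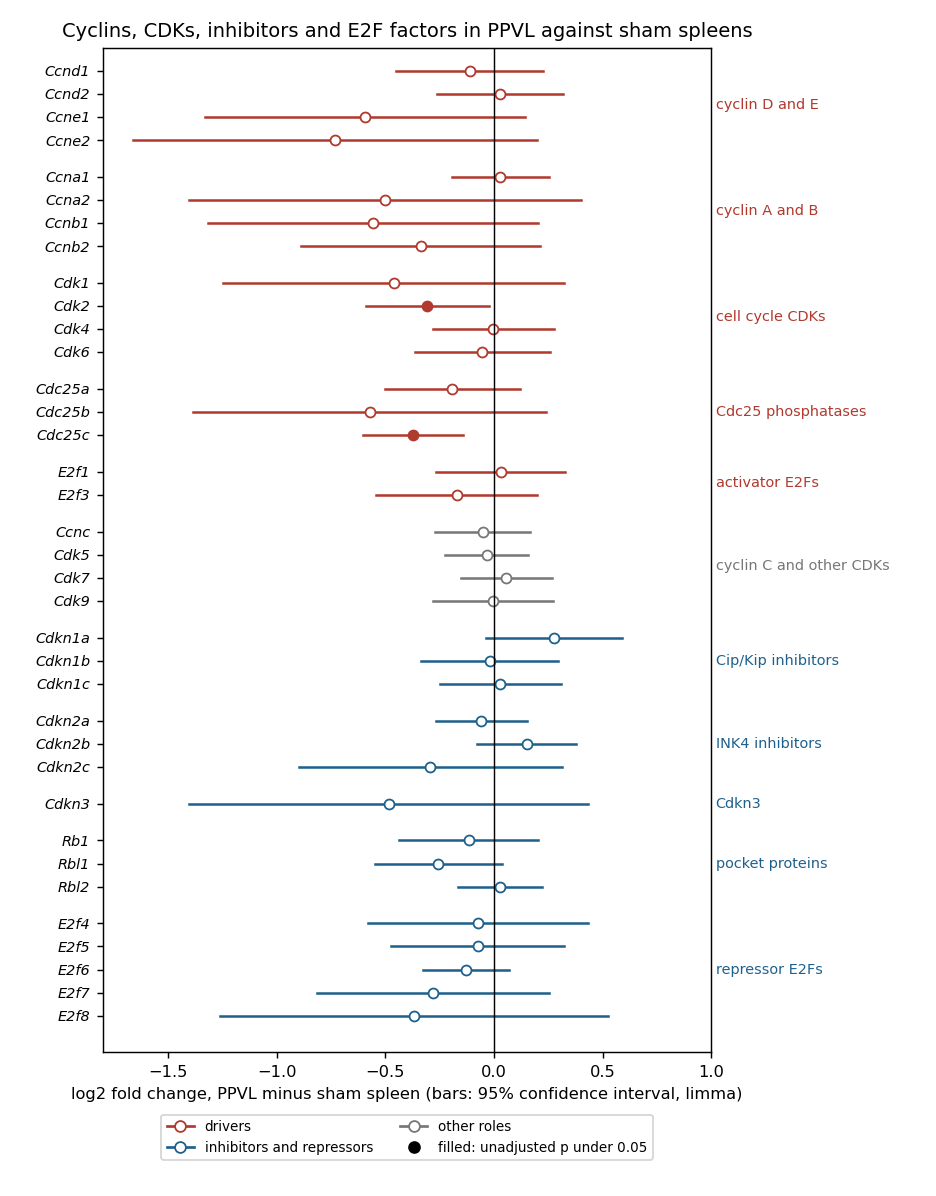
Log2 fold change of each of the 36 measured members, PPVL minus sham, with the 95% confidence interval from limma, grouped by role (n = 3 spleens each). Filled points, Cdk2 and Cdc25c, passed an unadjusted p under 0.05, and the intervals of Ccne1, Ccne2, Ccna2, Ccnb1, Cdk1, Cdc25b, Cdkn3 and E2f8 are the widest.

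Cdc25c, the phosphatase that activates cyclin B with Cdk1 at the entry to mitosis, had log2 levels of 6.71, 6.88 and 6.61 in PPVL rats 1 to 3, against 7.12, 7.11 and 7.08 in sham rats 1 to 3. All 3 PPVL spleens lay below all 3 sham spleens, and the sham values spanned 0.05. The mean was 6.73 ± 0.14 in PPVL and 7.10 ± 0.03 in sham spleens (SD, n = 3 each), a log2 fold change of -0.37 with a standard error of 0.10 (0.773-fold, 95% confidence interval on the log2 scale -0.60 to -0.14, unadjusted p = 0.00665 and adjusted p = 0.973 by limma). It passed the same threshold with each rat left out in turn, at -0.45 to -0.31, and was -0.36 without PPVL rat 1. Groups did not overlap for 3 members on the lower side and 1 on the higher side. Over all genes, 4.7% had groups apart on the lower side, 6.64% on the higher and 11.3% on either. With 3 spleens against 3, the exact two-sided permutation test cannot go below p = 0.1, the value it gave for each of these 4 genes.

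The other phosphatases of the family spread more. Cdc25b, which acts on CDKs in G2, had 9.05, 10.14 and 9.32 in PPVL spleens, against 10.38, 10.35 and 9.50 in sham spleens. PPVL rat 2 lay with the 2 high sham rats and sham rat 3 with the 2 low PPVL rats, so the groups overlapped (log2 fold change -0.57, standard error 0.34, limma unadjusted p = 0.139, and -0.35 without PPVL rat 1). Cdc25a, the phosphatase of the G1 to S transition, ranged between 7.61 and 7.93 in PPVL and between 7.73 and 8.06 in sham spleens (-0.19, unadjusted p = 0.187).

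Cdk2, the partner of cyclins E and A, had log2 levels of 8.33, 8.47 and 8.43 in PPVL spleens, against 8.76, 8.89 and 8.51 in sham spleens. The groups did not overlap, although sham rat 3 lay close to the highest PPVL rat. The means were 8.41 ± 0.07 and 8.72 ± 0.20 in PPVL and sham spleens (SD, n = 3 each), a log2 fold change of -0.31 with a standard error of 0.12 (0.808-fold, 95% confidence interval -0.59 to -0.03, unadjusted p = 0.0369, limma adjusted p = 0.973). The call was lost when any rat other than sham rat 3 was left out, at -0.34 to -0.22 with an unadjusted p of 0.0569 to 0.115. It was -0.27 without PPVL rat 1 and -0.41 without sham rat 3.

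Cdk1, the kinase of mitotic entry, had 7.33, 8.48 and 7.85 in PPVL spleens, against 8.71, 8.50 and 7.85 in sham spleens. It spread over 1.37 log2 units and did not pass the test (-0.46, standard error 0.33, limma unadjusted p = 0.206, and -0.18 without PPVL rat 1). The D-cyclin kinases stayed close together. Cdk4 averaged 10.08 ± 0.12 in PPVL and 10.08 ± 0.17 in sham spleens (SD, n = 3 each), with a 95% interval of the difference of -0.28 to 0.27, and Cdk6 averaged 8.08 ± 0.18 in PPVL and 8.13 ± 0.16 in sham spleens (SD, n = 3 each), with an interval of -0.37 to 0.26 (-0.13 without PPVL rat 1). Their D-type cyclins were alike in this: Ccnd1 had a log2 fold change of -0.11 (interval -0.45 to 0.23, and -0.23 without PPVL rat 1) and Ccnd2 of 0.03 (interval -0.26 to 0.32).

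The E-type cyclins had the most negative fold changes of the set and wide errors. Ccne2 had 7.14, 8.65 and 7.84 in PPVL spleens, against 8.97, 8.71 and 8.14 in sham spleens, a span of 1.84 log2 units over the 6 rats. PPVL rat 2 was above sham rat 3 and close to sham rat 2. Its log2 fold change of -0.73 had a standard error of 0.39 (0.602-fold, 95% interval -1.66 to 0.20, limma unadjusted p = 0.105). Without PPVL rat 1 it was -0.36 (unadjusted p = 0.31). Ccne1 followed the same rats, with 7.57, 8.64 and 7.82 in PPVL spleens, against 8.90, 8.74 and 8.16 in sham spleens (-0.59, standard error 0.31, unadjusted p = 0.0981, and -0.37 without PPVL rat 1).

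Ccnb1 and Ccna2 had the same 3 lower spleens, PPVL rats 1 and 3 and sham rat 3. Ccnb1, a mitotic cyclin, had 7.84, 9.12 and 8.39 in PPVL spleens, against 9.19, 9.17 and 8.67 in sham spleens (-0.56, standard error 0.32, limma unadjusted p = 0.126, and -0.25 without PPVL rat 1). Ccna2, the cyclin A of dividing body cells, had 8.22, 9.50 and 8.76 in PPVL spleens, against 9.72, 9.56 and 8.70 in sham spleens (-0.50, standard error 0.38, unadjusted p = 0.227, and -0.20 without PPVL rat 1). PPVL rat 1 was the lowest of the 6 for both, and PPVL rat 2 lay 0.23 below the highest sham rat for Ccna2 and 0.07 below it for Ccnb1. Ccnb2, another mitotic cyclin, had -0.34 (unadjusted p = 0.188, and -0.17 without PPVL rat 1) on the brighter of its 2 transcript clusters and -0.61 (unadjusted p = 0.181) on the dimmer. Ccna1, the cyclin A of germ cells, was dim and flat, with 4.91 ± 0.12 in PPVL and 4.88 ± 0.05 in sham spleens (SD, n = 3 each).

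**Figure D2:**
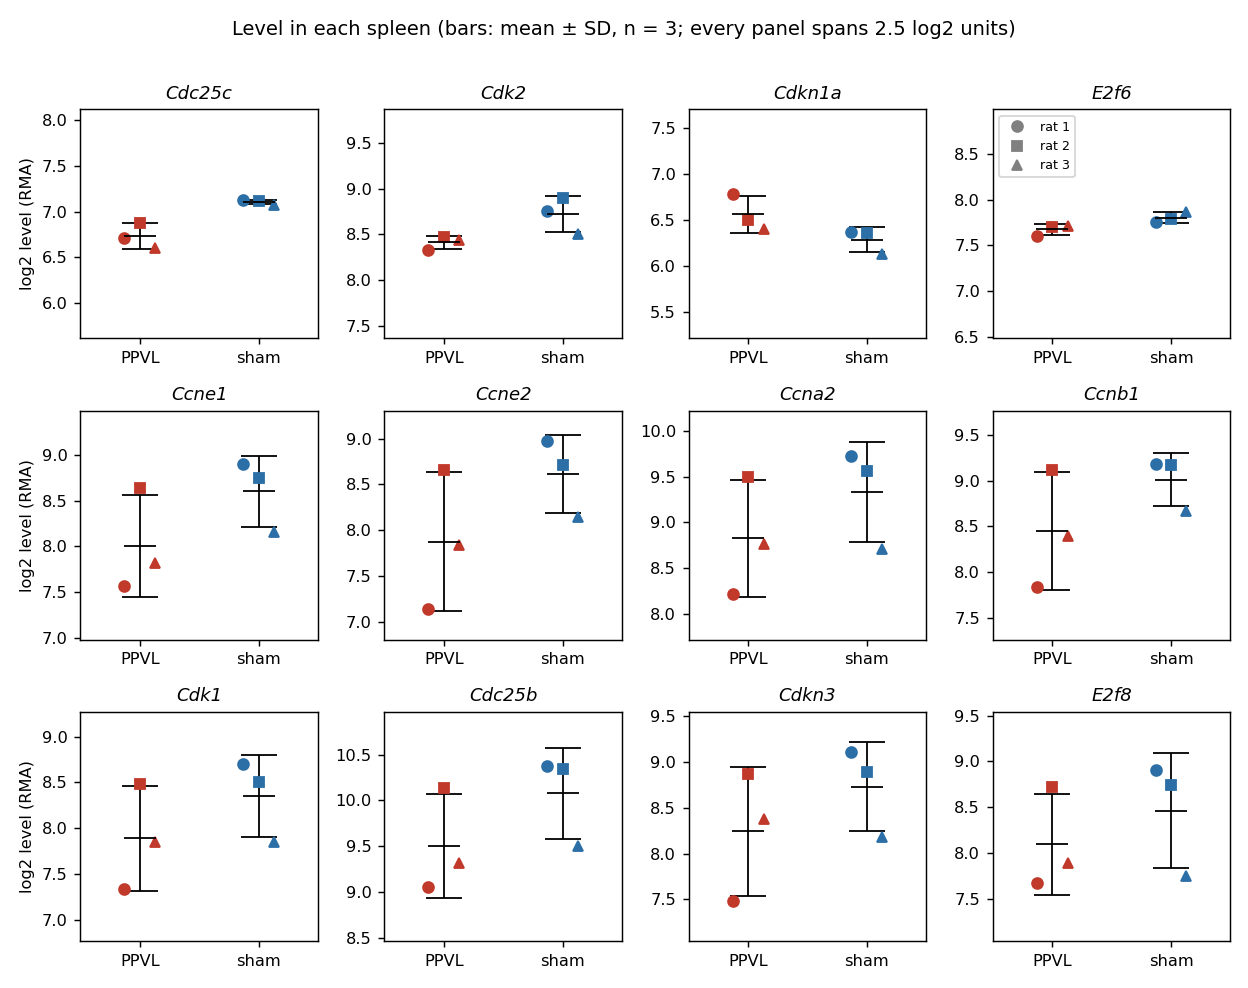
Log2 level of 12 members in each spleen, with PPVL spleens left and sham spleens right and the mean ± SD of n = 3 each; marker shape gives the rat number, which only names a rat. The first 4 genes are those whose groups do not overlap, and in the other 8 panels PPVL rat 2 (square) lies above PPVL rats 1 and 3, and sham rat 3 (triangle) lies below sham rats 1 and 2.

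Of the activator E2Fs, which switch on S phase genes, E2f3 had 6.63, 6.61 and 6.40 in PPVL spleens, against 6.96, 6.79 and 6.41 in sham spleens (-0.17, limma unadjusted p = 0.306, and -0.22 without PPVL rat 1). The groups overlapped through sham rat 3. E2f1 averaged 6.27 ± 0.09 in PPVL and 6.24 ± 0.21 in sham spleens (SD, n = 3 each), a log2 fold change of 0.03. Among the genes set apart for other roles, the largest difference was that of Cdk7, part of the kinase that activates other CDKs and RNA polymerase II. It had 8.43, 8.52 and 8.62 in PPVL spleens, against 8.50, 8.42 and 8.49 in sham spleens (0.06, limma unadjusted p = 0.545). Ccnc, a cyclin of the Mediator complex, was at -0.05, Cdk5, best known in neurons, at -0.03, and Cdk9, the kinase of transcription elongation, at -0.01.

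On the inhibitor side, Cdkn1a, which encodes p21 and is induced by p53, had 6.79, 6.50 and 6.40 in PPVL spleens, against 6.37, 6.36 and 6.13 in sham spleens. It was the only member whose 3 PPVL values all lay above the 3 sham values, by 0.03 between the nearest rats. The means were 6.56 ± 0.20 and 6.28 ± 0.14 in PPVL and sham spleens (SD, n = 3 each), a log2 fold change of 0.28 with a standard error of 0.13 that did not pass the test (1.21-fold, 95% interval -0.04 to 0.59, limma unadjusted p = 0.0749). It was 0.16 without PPVL rat 1, and it passed at 0.36 without PPVL rat 3 (unadjusted p = 0.046). Cdkn1b, which encodes p27, was at -0.02 and Cdkn1c, which encodes p57, at 0.03. Of 12 other p53 targets listed, 8 were measured, none passed in either direction, and their median was -0.05.

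The INK4 inhibitors bind Cdk4 and Cdk6. Cdkn2c had 7.75, 8.56 and 8.14 in PPVL spleens, against 8.74, 8.56 and 8.02 in sham spleens, with the same high and low rats as the late cyclins (-0.29, standard error 0.25, limma unadjusted p = 0.289, and -0.0931 without PPVL rat 1). Cdkn2b was at 0.15 (interval -0.08 to 0.38) and Cdkn2a, which was dim, at -0.06 (interval -0.27 to 0.15). Cdkn3 encodes a phosphatase that removes the activating phosphate of CDKs. It had 7.48, 8.87 and 8.38 in PPVL spleens, against 9.11, 8.89 and 8.18 in sham spleens (-0.49, standard error 0.39, unadjusted p = 0.25, and -0.10 without PPVL rat 1). It is grouped with the inhibitors by that activity, but its levels were ordered over the rats as those of Cdk1 and Ccna2 were in the PPVL spleens and in the sham spleens.

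Of the pocket proteins, Rbl1, which encodes p107, had 8.80, 9.13 and 9.02 in PPVL spleens, against 9.36, 9.27 and 9.09 in sham spleens. PPVL rat 2 lay just above sham rat 3, and the difference of -0.26 with a standard error of 0.12 did not pass (95% interval -0.55 to 0.04, limma unadjusted p = 0.0767, and -0.16 without PPVL rat 1). Rb1, the retinoblastoma gene, was at -0.12 (interval -0.44 to 0.20, and -0.0261 without PPVL rat 1). Rbl2, which encodes p130 of resting cells, was at 0.03 (interval -0.16 to 0.22), with all 6 rats within 0.14 of each other.

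The repressor E2Fs were all on the negative side without passing the test. E2f6, which represses with Polycomb partners, had 7.61, 7.70 and 7.71 in PPVL spleens, against 7.75, 7.79 and 7.86 in sham spleens. Its groups did not overlap, but the step was small (-0.13, standard error 0.08, limma unadjusted p = 0.164, and -0.0949 without PPVL rat 1). E2f8 had 7.68, 8.72 and 7.89 in PPVL spleens, against 8.90, 8.74 and 7.75 in sham spleens (-0.37, standard error 0.38, unadjusted p = 0.359, and -0.16 without PPVL rat 1). E2f7, which like E2f8 is itself switched on by E2F in S phase, was at -0.28 (unadjusted p = 0.251, and -0.0997 without PPVL rat 1), and E2f4, the main E2F of resting cells, at -0.07 (unadjusted p = 0.736, and -0.0249 without PPVL rat 1). E2f5 disagreed between its 2 transcript clusters. The brighter, which stands for the gene here, had -0.08 (unadjusted p = 0.666). The dimmer had 5.95, 5.48 and 5.83 in PPVL spleens, against 6.37, 6.06 and 6.15 in sham spleens, a log2 fold change of -0.44 with a standard error of 0.15 (unadjusted p = 0.0209, limma adjusted p = 0.973), so E2f5 has no settled value.

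Part of these genes spread widely between spleens of 1 group. The SD pooled within groups was above that of 95% of all genes (0.305) for 12 of 36 members, against 5% of genes by construction: Ccne1, Ccne2, Ccna2, Ccnb1, Ccnb2, Cdk1, Cdc25b, Cdkn2c, Cdkn3, E2f4, E2f7 and E2f8. It reached 0.616 for Ccne2, which 0.776% of all genes exceeded, against a median of 0.125 over all genes. Cdc25c had 0.099 and Cdk2 0.148, near or under that median. The test uses this same spread, so it favours calls in genes where the spread is low. Wide spread was not particular to the members, whose median pooled SD was 0.173. It was 0.329 over the E2F targets of S phase, 0.266 over the regulators of CDK activity and 0.863 over the erythroid markers. The wide-spread genes include drivers and inhibitors. In all 12, PPVL rat 2 was the highest of the PPVL rats and sham rat 3 the lowest of the sham rats, an order that 19 of 36 members and 16.0% of all genes had. PPVL rat 1 was the lowest of all 6 rats in 11 of the 12 (the exception was E2f4, lowest in sham rat 3), in 16 of 36 members (44.4%) and in 16.6% of all genes. The 12 were picked for their spread, so this is a description without a test.

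**Figure D3:**
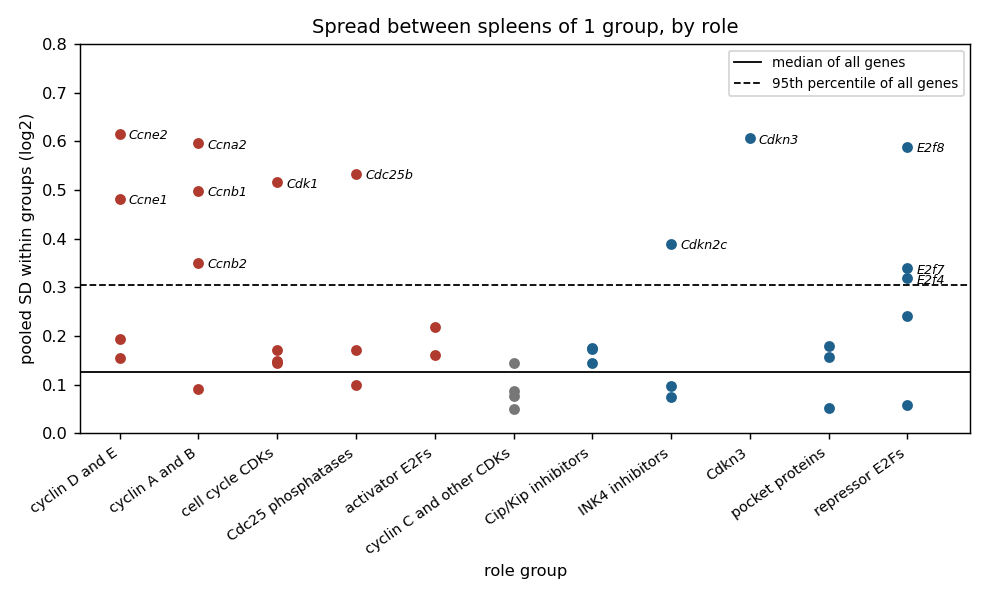
SD between spleens pooled within the PPVL and sham groups (log2 units, y axis) for each measured member by role group (x axis), with the median (0.125, solid line) and 95th percentile (0.305, dashed line) of all genes. The 12 named members lie above the dashed line, and Ccne2 is the highest at 0.616.

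Erythroid markers followed the same rats. The median deviation of the A and B cyclins from their mean over the 6 arrays was -0.69, 0.29 and -0.25 in PPVL rats 1 to 3, against 0.34, 0.46 and -0.13 in sham rats 1 to 3. For the 7 erythroid markers it was -1.36, 0.65 and -0.29 in PPVL rats 1 to 3, against 0.64, 0.71 and -0.30 in sham rats 1 to 3. Both lists were high in PPVL rat 2, sham rat 1 and sham rat 2, and low in PPVL rat 1, PPVL rat 3 and sham rat 3. For the germinal centre B cell markers the median deviation was -0.10, 0.12 and 0.04 in PPVL rats, against 0.03, 0.28 and -0.33 in sham rats. Its sign differed from that of the A and B cyclins only in PPVL rat 3. The B cell, T cell and red pulp macrophage markers did not share the pattern. For all drivers the median deviation was -0.21, 0.08 and -0.23 in PPVL rats, against 0.22, 0.20 and -0.14 in sham rats. For all inhibitors it was -0.13, 0.10 and -0.09 in PPVL rats, against 0.24, 0.06 and -0.16 in sham rats. The medians of all drivers and of all inhibitors were thus high and low in the same spleens. Pocket proteins, repressor E2Fs and Cdkn3 shared this pattern, and the Cip/Kip and INK4 inhibitors did not. Cip/Kip medians were 0.11, 0.07 and -0.04 in PPVL rats, against -0.05, 0.04 and -0.21 in sham rats. INK4 medians were -0.02, 0.16 and -0.09 in PPVL rats, against 0.05, -0.07 and 0.05 in sham rats. The part of erythroid cells, of germinal centre B cells, and of the pancreatic transcripts in PPVL rat 1, in the levels of these genes was not tested.

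**Figure D4:**
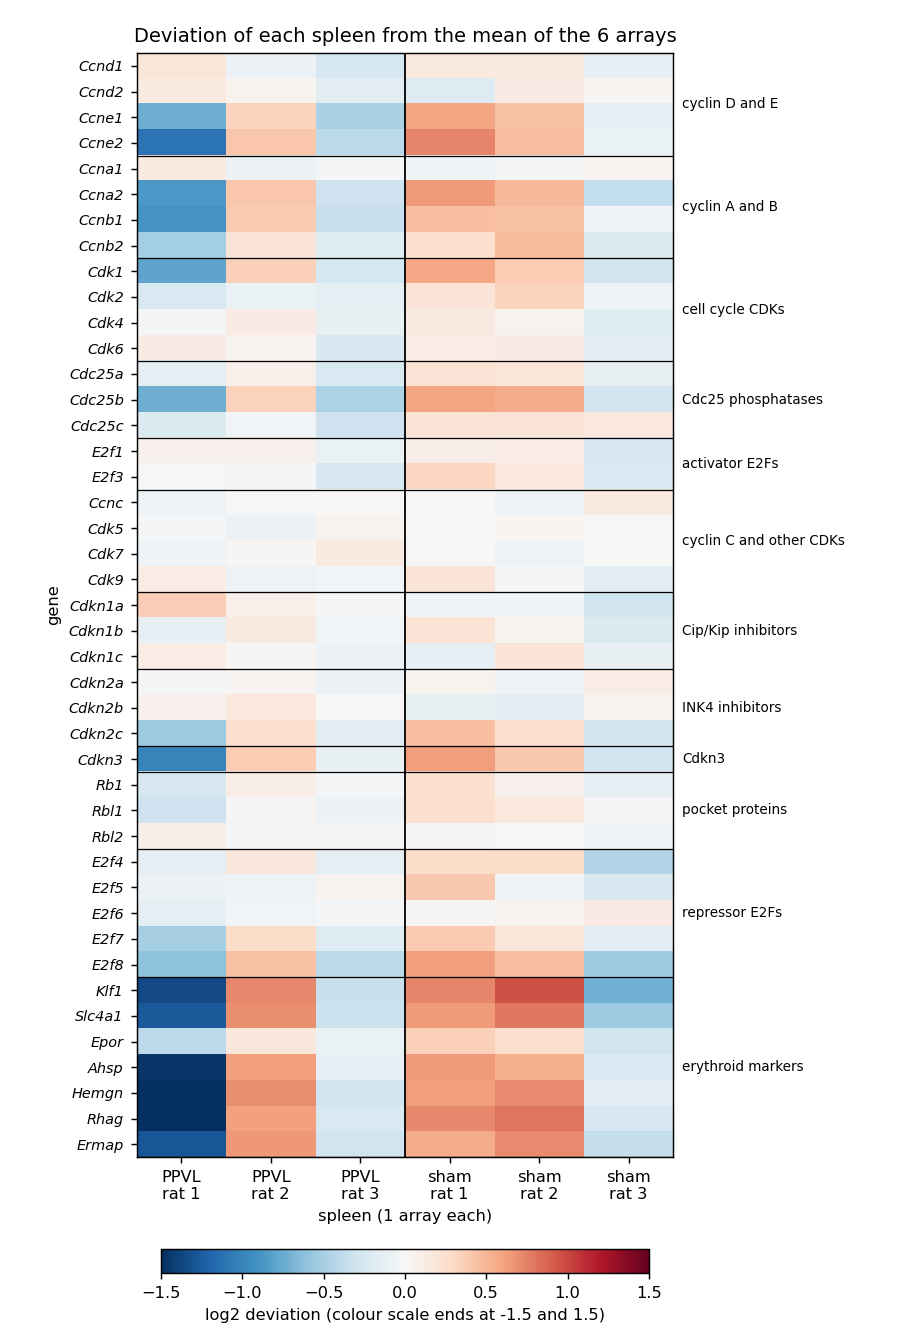
Deviation of each spleen from the gene's mean over the 6 arrays (colour, log2 units, red above and blue below) for the 36 measured members by role and the 7 measured erythroid markers, PPVL spleens left and sham spleens right. Ccne1, Ccne2, Ccna2, Ccnb1, Ccnb2, Cdk1, Cdc25b, Cdkn3 and the erythroid markers are red in PPVL rat 2 and sham rats 1 and 2 and blue or pale in the other 3 spleens, most strongly blue in PPVL rat 1.

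The number of calls moved with the rats in the fit. Without PPVL rat 2, 9 members passed as lower (2.77% of all genes did): Ccne2 (-1.12), Ccne1 (-0.91), Ccnb1 (-0.89), Cdc25b (-0.89), Ccna2 (-0.84), Cdk1 (-0.76), E2f7 (-0.49), Cdc25c (-0.45) and Rbl1 (-0.33). Cdk2 was not among them. Without sham rat 3, 7 passed (2.09% of all genes): Cdc25b (-0.86), Ccne1 (-0.82), Cdk2 (-0.41), Cdc25c (-0.39), Rbl1 (-0.33), E2f3 (-0.33) and Cdc25a (-0.30). Without PPVL rat 1, only Cdc25c passed (0.925% of all genes were lower). It was also the 1 member called lower without PPVL rat 3 (1.12% of all genes), without sham rat 1 (1.24%) and without sham rat 2 (1.68%). In the fit without PPVL rat 3, Cdkn1a was the 1 member called higher, beside 2.22% of all genes. The median of the drivers lay between -0.39 and -0.18 over these fits and that of the inhibitors between -0.21 and -0.03, and each stayed negative.

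**Figure D5:**
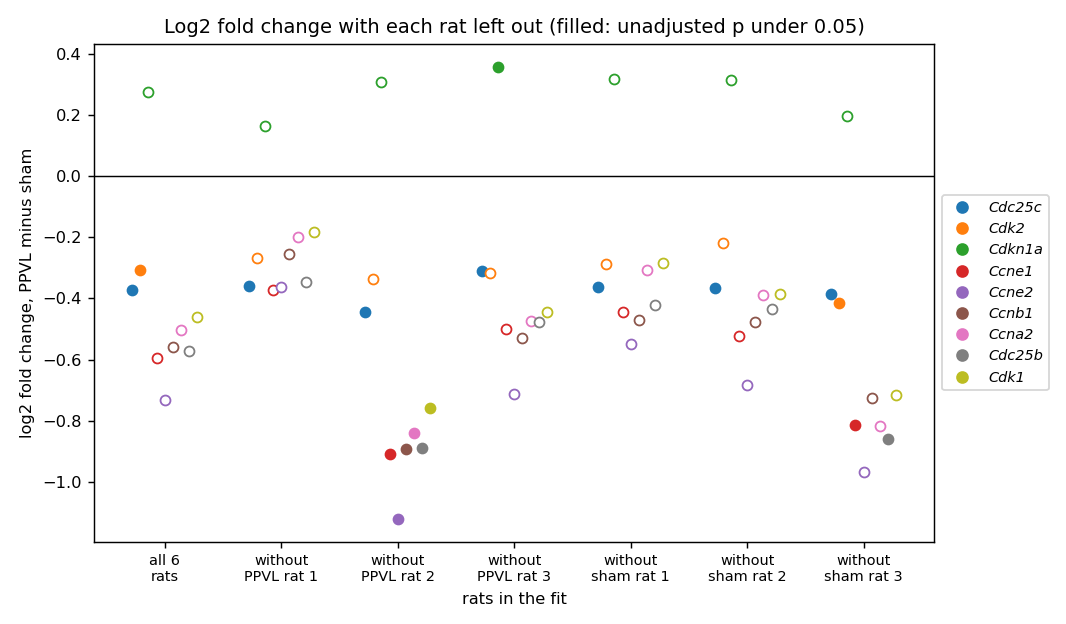
Log2 fold change, PPVL minus sham (y axis), of 9 members with all 6 rats and with each rat left out in turn (x axis); filled points passed an unadjusted p under 0.05 in limma. Cdc25c is filled throughout, Cdk2 with all rats and without sham rat 3, and Ccne1, Ccne2, Ccnb1, Ccna2, Cdc25b and Cdk1 are filled together only without PPVL rat 2.

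Genes around the cyclin and E2F machinery had mostly negative differences. Of 53 such genes in 4 lists, 44 were measured, 3 passed as lower (against 1.55% of all genes) and none as higher, and 40 had a negative log2 fold change (90.9%, against 48.3% of all genes). Like the members, they are not separate observations. The count of 3 was 16 without PPVL rat 2, where 2.77% of all genes were lower. It was 9 without sham rat 3 (2.09% of all genes) and 2 without sham rat 1 (1.24%). It was 1 without PPVL rat 1 (0.925%), without PPVL rat 3 (1.12%) and without sham rat 2 (1.68%). The count of 0 higher calls (limma, unadjusted p under 0.05) was the same in each of the 15 other settings run. Among regulators of CDK activity, Chek2, the checkpoint kinase of DNA breaks that acts on Cdc25 proteins, had 6.37, 6.58 and 6.62 in PPVL spleens, against 6.78, 7.01 and 6.87 in sham spleens. The groups did not overlap (-0.36, standard error 0.11, limma unadjusted p = 0.0124), and Chek2 passed with each rat left out, at -0.42 to -0.29. All 14 measured of 15 listed were negative, with a median of -0.23, and 12 were negative without PPVL rat 1, with a median of -0.14. Among E2F targets of S phase, 14 of 17 were measured, all negative with a median of -0.38 (-0.23 without PPVL rat 1), and 2 passed. Tyms, the thymidylate synthase of DNA precursor supply, had 8.91, 9.59 and 9.17 in PPVL spleens, against 9.68, 9.70 and 9.55 in sham spleens, so the groups overlapped by 0.04 (-0.42, unadjusted p = 0.0452). Its call was lost when any rat other than PPVL rat 2 was left out, and it was -0.27 without PPVL rat 1. Orc1, of the complex that marks replication origins, had 5.92, 6.72 and 6.28 in PPVL spleens, against 6.99, 7.06 and 6.60 in sham spleens (-0.58, unadjusted p = 0.0353). Its call held only with all rats, without PPVL rat 2 and without sham rat 3 among these fits, and it was -0.39 without PPVL rat 1. Mki67, also in this list, was at -0.52 and did not pass (limma unadjusted p = 0.207). By Ki67 staining of sections, the paper reports more proliferating cells in PPVL spleens. That is a protein measure and was not compared with these RNA levels. Of the E2F partners and the DREAM complex, 8 of 9 were measured and none passed, with a median of -0.10.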

How the data were processed

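Spleen RNA of 3 PPVL and 3 sham rats was hybridised to 1 array each. The authors normalized the arrays by RMA in Transcriptome Analysis Console and deposited log2 values, 36685 transcript clusters with 0 missing. RMA gives the arrays like distributions, so a level is relative to the array's other probes, and precision rests on the number of arrays. Symbols came from the platform annotation, updated by Entrez identifier to RefSeq (18394 of 18511 single-symbol clusters matched; 575 carried several symbols and 17599 none). Where a gene had several clusters, the brightest on average stood for it. Groups were compared with limma 3.58.1 (R 4.3.3, lmFit and eBayes, no covariate), tested on simulated data first, on all clusters, with a call at an unadjusted p under 0.05, the study's threshold. Every measured member is named, and all 6 values are given for members called, with groups apart, or with the largest change of their role. The members and lists were chosen with earlier results of these data known. Alternatives were a replicate block, each rat left out, a filter on dim or unnamed clusters, a variance trend, a robust prior, array weights, quantile and median scaling and the mean of a gene's clusters.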

Additional observations from a re-analysis of the deposited data

How the results depend on the processing

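The members' log2 fold changes, the medians of drivers and inhibitors, the counts of calls and the 3 called pathway genes were recomputed under 15 other settings (14 for Ccna1 and Cdkn2a). Cdc25c and Chek2 passed in all of them. The count of members lower in PPVL, 2 with all rats, lay between 1 and 9 with each rat left out, was 4 with array weights (adding Ccne1 at -0.72 and Rbl1 at -0.29) and 1 with median centring (1.95% and 1.26% of all genes were lower in these fits), where Cdk2 was at -0.30 (limma unadjusted p = 0.0663) and Tyms at -0.42 (limma unadjusted p = 0.0618), both no longer called. Members called higher, 0 with all rats, lay between 0 and 1 with each rat left out. The count of the surrounding pathway genes lower in PPVL, 3 with all rats, lay between 1 and 16 with each rat left out and was 6 with array weights. The share of all genes that were lower lay between 0.925% and 2.77% with each rat left out and was 1.95% with array weights. The filter on dim clusters left 34 members, without Ccna1 and Cdkn2a.

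The rat numbers did not pair the samples: same-numbered rats had deviations correlated at -0.13, 0.14 and 0.12, and not every rat correlated best with its own number. With the replicate block, 1 member was called higher (Cdkn1a, 0.28, limma unadjusted p = 0.0441) beside 2.34% of all genes, and 5 pathway genes lower (1.49% of all genes); the calls of Cdc25c and Cdk2 stayed.

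Signs turned only in genes near 0, none of them called. With array weights E2f1 was at -0.0205 and Cdkn1c at -0.00833, and with median centring Cdk4 was at 0.000563. With each rat left out, the log2 fold change lay between -0.0612 and 0.11 for Ccnd2, between -0.0373 and 0.0779 for Ccna1, between -0.0978 and 0.0631 for Cdk4, between -0.15 and 0.0495 for Cdk6, between -0.0895 and 0.0906 for E2f1, between -0.10 and 0.00887 for Ccnc, between -0.0662 and 0.00102 for Cdk5, between -0.0883 and 0.088 for Cdk9, between -0.13 and 0.0774 for Cdkn1b, between -0.0262 and 0.13 for Cdkn1c, between -0.0079 and 0.0471 for Rbl2, between -0.31 and 0.0456 for E2f4 and between -0.22 and 0.11 for E2f5. The cause of these shifts was not tested. With 3 rats a group, a difference as large as that of Ccne2 could not be told from the spread between rats.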
